A study of Xenopus laevis with 9 samples.

Results

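This account covers the response of anterior explants of wild-type *Xenopus laevis* embryos to 10 µM 4-oxo-retinoic acid (4-oxo-RA), measured against explants kept in the solvent dimethyl sulphoxide (DMSO). Its members are all 3 libraries of each treatment, 6 of the 9 in the series, and every gene with enough counts to be tested, 20811 of the 58413 in the table. Embryos from 3 females were cut at NF stage 12.5 of the Nieuwkoop and Faber table, the end of gastrulation. The explants, the front parts of the embryos, were treated until NF stage 15, the early neurula, and messenger RNA was sequenced. The labels give the DMSO controls as 10 µM as well, do not say how many explants made a library, and do not tie a library to a female. A further 3 libraries, from explants in 1 µM retinoic acid (RA), entered the fit so that the spread between libraries was better estimated. Because the species is allotetraploid, a gene often has 2 copies (homeologs), marked L and S by subgenome, and these were counted and tested apart.

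Retinoic acid derives from vitamin A and is the ligand of RAR, a nuclear receptor that sits on DNA paired with RXR and regulates target genes. It is made by aldehyde dehydrogenases such as Aldh1a2 in the trunk and broken down by Cyp26 enzymes, and 4-oxo-RA, which carries an oxo group on carbon 4 of the ring, is one of the oxidised forms that arise on that route. In vertebrate embryos retinoid signalling patterns the hindbrain and neck region through Hox genes, while the forebrain and other head tissue form where the signal is low.

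Library totals ranged from 9404644 to 20883648 counts in DMSO and from 9768025 to 15884096 counts in 4-oxo-RA. Expression is given in CPM, counts scaled to a common library size, which is not corrected for gene length, and is listed in the order of library numbers 1, 2 and 3. A library resembled the libraries of the other treatments that carried its own number, so the main fit compared libraries within a number and is called the paired fit here. A log2 fold change is given as 4-oxo-RA minus DMSO with its standard error (SE), and a gene was called at an edgeR adjusted p below 0.05. An unpaired p stands beside a gene that was not called when the library number was left out of the fit, and any call lost when 1 library was left out is stated. Neighbouring genes named only at the end are an exception. The paired p-values measure the spread left among the 9 libraries once treatment and library number are taken out. The unpaired ones measure the spread within treatments. Either spread may be technical. The paired test made more false calls than its nominal rate on simulated counts, so its adjusted p-values may be too small. Head markers were present as the tissue label states: the 24 tested copies of anterior head genes summed to between 3670 and 4640 CPM in the DMSO libraries, and the 10 tested copies of posterior and tail bud genes to between 34.3 and 68.6 CPM. Genes of somites, the muscle-forming trunk segments, summed to 1700.2, 876 and 594 CPM in DMSO and to 1282, 560.2 and 657 CPM in 4-oxo-RA, so the number 1 library was the highest of each group. The paired fit called 638 genes without DMSO replicate 1 and 459 without 4-oxo-RA replicate 1, against 700 with all libraries. The anterior head genes summed to between 3021 and 3538 CPM in 4-oxo-RA, below every DMSO library. Most of these sums, and of their fall, came from ag1, an abundant gene of the cement gland. Its copies ag1.L and ag1.S averaged 1311 and 1402 CPM in DMSO and 1040 and 1079 CPM in 4-oxo-RA, and ag1.L was not called (edgeR adjusted p = 0.144). In RNA from whole explants, fewer cells of a type and less RNA per cell cannot be told apart.

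More genes were higher than lower in 4-oxo-RA, and by a larger median fold. The paired fit called 700 genes, 3.36% of those tested, with 427 higher (2.05%) and 273 lower (1.31%). The median fold among higher genes was 1.94 and among lower genes 1.78, and 207 higher and 105 lower genes changed at least 2-fold. A change of more than 16-fold was estimated for 15 higher and 4 lower genes. The median log2 fold change over all tested genes was −0.0029. Groups did not overlap for 364 higher and 207 lower genes, where 5.90% and 5.28% of all tested genes lay wholly above or below DMSO. Without the replicate block 153 genes were called (0.735%), 130 higher (0.625%) and 23 lower (0.111%), all of them also called in the paired fit, and the share of higher genes among calls was 85.0% in place of 61%.

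**Figure D1:**
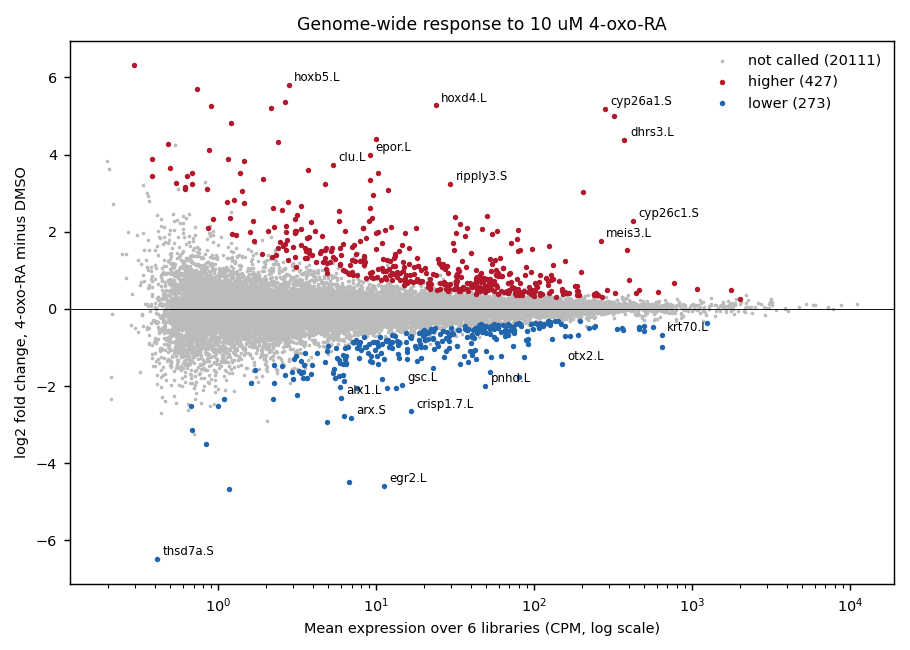
Each point is a tested gene, with its mean expression over the 6 libraries in CPM on a log axis and its log2 fold change, 4-oxo-RA minus DMSO. The 427 called higher genes are red, the 273 called lower genes blue and the rest grey. Among the labelled genes cyp26a1.S, at 5.18, dhrs3.L, at 4.39, and hoxd4.L, at 5.28, lie far above 0 and egr2.L, at −4.59, far below.

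Leaving out 1 library moved the counts unevenly. Between 257 and 392 genes were higher and between 92 and 246 lower on omitting single libraries, the fewest without DMSO replicate 3 in both directions. The lower genes numbered 143 without DMSO replicate 2, and 129, 152 and 153 without 4-oxo-RA replicates 1, 2 and 3. Calls also depended on abundance. Of the 2656 genes below 1 CPM 0.828% were called, none with a log2 change under 2.09 in size, while 5.93% of the 3709 genes from 30 to 100 CPM were called, with changes down to 0.35.

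Among the largest responses were those of genes that limit retinoid levels. In the retinoid metabolism list, binding proteins included, 12 of 23 tested copies rose, 3 fell and 8 did not pass, with a median log2 change of 0.60. The main RA-oxidising enzyme gene, cyp26a1, was represented by both copies. Expression of cyp26a1.S was 18.03, 11.7 and 16.3 CPM in DMSO and 560.1, 523 and 551 CPM in 4-oxo-RA, a change of 5.18 ± 0.12 (edgeR adjusted p = 1.33e-12). For cyp26a1.L it was 19.6, 14.2 and 26.9 CPM in DMSO and 594, 588 and 697 CPM in 4-oxo-RA, a change of 4.99 ± 0.12 (edgeR adjusted p = 1.56e-12). Treated and control libraries were far apart for both copies, and the treated libraries lay close together. The retinaldehyde reductase gene dhrs3.L, which draws the precursor of RA back to retinol, was at 43.7, 22.1 and 39.5 CPM in DMSO and 806, 594 and 738 CPM in 4-oxo-RA, a change of 4.39 ± 0.12 (edgeR adjusted p = 3.83e-12). Here too no libraries overlapped. Its homeolog dhrs3.S was at 0.834, 0.408 and 0.4496 CPM in DMSO and 5.43, 0.396 and 5.87 CPM in 4-oxo-RA, with 4-oxo-RA replicate 2 at the level of the controls, and changed by 2.62 ± 0.60 (edgeR adjusted p = 0.0242, unpaired 0.230), a call that was lost without DMSO replicate 1 or 3 or 4-oxo-RA replicate 1 or 3 (adjusted p by edgeR from 0.0679 to 0.182).

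The other Cyp26 genes rose from different starting points. Expression of cyp26c1.L was 71.6, 47.2 and 20.6 CPM in DMSO and 554, 317 and 222 CPM in 4-oxo-RA, so that control and treated libraries fell in the same order by number, and the change was 3.03 ± 0.12 (edgeR adjusted p = 4.52e-10). The copy cyp26c1.S was at 145, 159.7 and 122 CPM in DMSO and 752, 514 and 843 CPM in 4-oxo-RA, a change of 2.28 ± 0.14 (edgeR adjusted p = 1.37e-07). Both copies rose in all 3 numbers without overlap. The gene cyp26b1.L had 4 counts over the 3 DMSO libraries and 92 over the treated ones, so its change of 4.83 ± 0.46 (edgeR adjusted p = 1.25e-05) rests on few control counts. RNA for a cellular retinoid-binding protein also rose: crabp2.S and crabp2.L changed by 0.76 ± 0.09 (edgeR adjusted p = 1.08e-04, unpaired 0.248) and 0.75 ± 0.14 (edgeR adjusted p = 0.00449, unpaired 0.228), with overlapping groups in crabp2.L. The members that fell were both aldh1a2 copies and rdh10.L. The RA-synthesising dehydrogenase gene aldh1a2.L was at 99.8, 70.6 and 88.3 CPM in DMSO and 45.6, 28.1 and 38.2 CPM in 4-oxo-RA, without overlap, and changed by −1.22 ± 0.19 (edgeR adjusted p = 0.00124, unpaired 0.233). The copy aldh1a2.S changed by −0.86 ± 0.22 (edgeR adjusted p = 0.0452, unpaired 0.935) with overlapping groups, and its call was lost without each library but DMSO replicate 1 (adjusted p by edgeR from 0.0510 to 0.292). The retinol dehydrogenase gene rdh10.L fell by 0.50 on the log2 scale (edgeR adjusted p = 0.00647, unpaired 0.435), a call lost without DMSO replicate 2 or 3 (adjusted p by edgeR from 0.0596 to 0.0618), while rdh10.S was not called, averaging 38.9 ± 1.12 CPM with DMSO and 44.3 ± 4.27 CPM with 4-oxo-RA (SD, n = 3), a change of 0.18 ± 0.12 (edgeR adjusted p = 0.586). Without the pairing 6 genes of the list rose and aldh1a2 and rdh10 did not pass, and on omitting single libraries between 9 and 11 rose and between 1 and 3 fell.

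**Figure D2:**
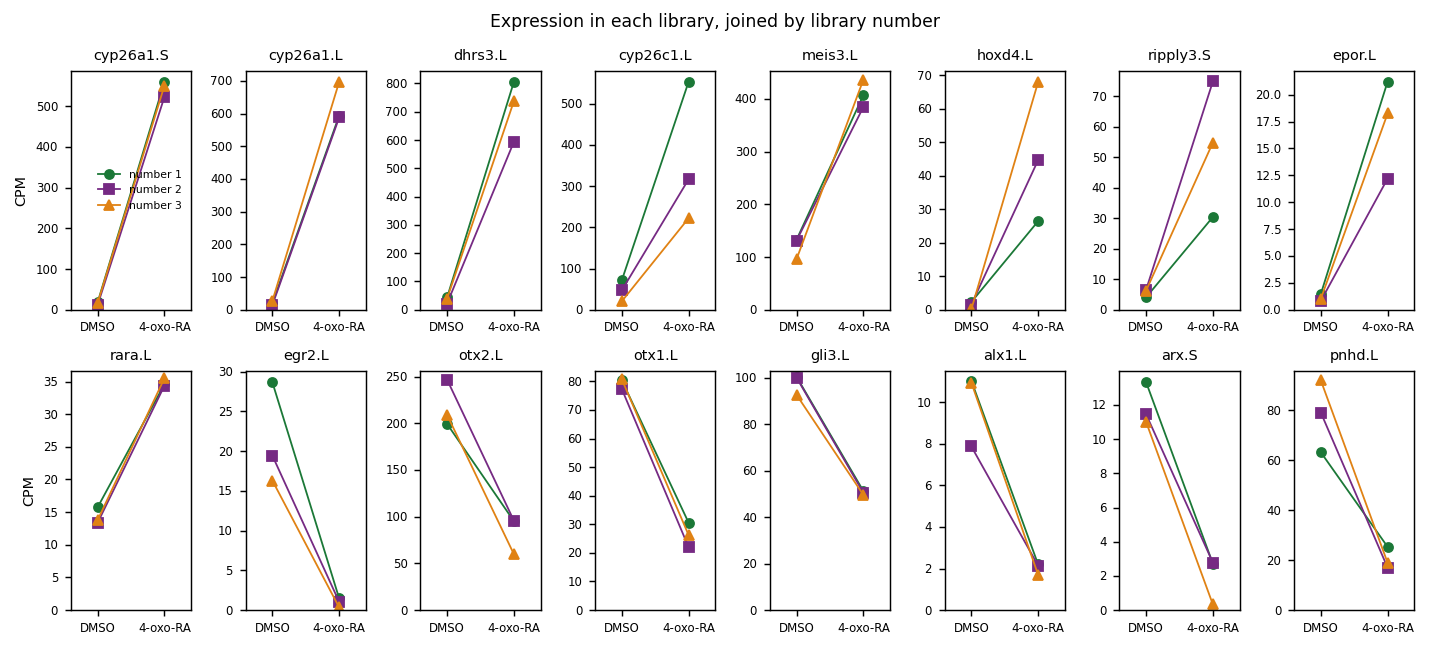
Expression in CPM of 16 genes in each of the 6 libraries, with DMSO on the left and 4-oxo-RA on the right of each panel and a line joining libraries of the same number. In every panel the 3 lines run the same way and the groups do not overlap. The genes were picked with their values in view, so this is not a test. Of all tested genes 33.2% had 3 ratios of the same sign, and 11.2% had groups that did not overlap. For cyp26a1.S, cyp26a1.L, dhrs3.L, cyp26c1.L, ripply3.S, epor.L, egr2.L and gli3.L the numbers keep their order in both groups, and in the other panels they do not. In DMSO cyp26c1.L ran from 71.6 to 20.6 CPM and egr2.L from 28.7 to 16.3 CPM.

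Among receptor and coregulator genes rara.L had the smallest p. Their list had 22 tested copies, of which 4 rose and 18 did not pass, with a median of 0.05. The called share was 18.2%, against 3.36% of all tested genes. This list, like the others, was chosen with earlier results of these data known, so the share does not test it. Expression of rara.L, which encodes RAR alpha, was 15.7, 13.4 and 13.8 CPM in DMSO and 34.6, 34.4 and 35.5 CPM in 4-oxo-RA, a change of 1.29 ± 0.13 (edgeR adjusted p = 2.12e-05). The groups did not overlap and the treated libraries were almost level. The coregulator gene nrip1.S changed by 0.698 ± 0.12 (edgeR adjusted p = 0.00347, unpaired 0.0841). The calls of rxra.L, at 0.74 ± 0.16 (edgeR adjusted p = 0.0149, unpaired 0.866), and of the coactivator gene ncoa3.S, at 0.45 ± 0.10 (edgeR adjusted p = 0.0222, unpaired 0.272), were lost without DMSO replicate 1 or 2 or 4-oxo-RA replicate 1 or 2 (adjusted p by edgeR from 0.0562 to 0.126) and without each library but DMSO replicate 1 (adjusted p by edgeR from 0.0548 to 0.143). Expression of rarg.S, which encodes RAR gamma, was 161, 127 and 143 CPM in DMSO and 158, 129.7 and 143 CPM in 4-oxo-RA, with overlapping groups and a change of 0.00 ± 0.07 (edgeR adjusted p = 0.999). The copies rarg.L and rarb.L, at 0.298 ± 0.42 (edgeR adjusted p = 0.868) and 0.29 ± 0.55 (edgeR adjusted p = 0.910), had overlapping groups and at most 77 counts a group. The copies rara.S and rarb.S were not tested, with at most 7 and 9 counts in any library. Without the pairing 1 gene of the list was called, and between 2 and 4 on omitting single libraries.

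Anterior Hox genes, which specify positions from the hindbrain to the neck, rose almost as a whole. Of 18 tested copies of Hox groups 1 to 5, 17 rose and 1 did not pass, with a median log2 change of 2.09. Expression of hoxd1.L was 13.3, 6.43 and 18.04 CPM in DMSO and 61.3, 38.4 and 66.8 CPM in 4-oxo-RA, a change of 2.19 ± 0.14 (edgeR adjusted p = 2.10e-07). The copy hoxd1.S was at 18.2, 7.75 and 19.1 CPM in DMSO and 60.8, 47.9 and 73.2 CPM in 4-oxo-RA, a change of 2.09 ± 0.15 (edgeR adjusted p = 6.32e-07). Groups did not overlap in either, and the number 2 library was the lowest of each group in both. Expression of hoxb1.S was 20.6, 9.88 and 13.7 CPM in DMSO and 46.2, 46.6 and 47.2 CPM in 4-oxo-RA, a change of 1.72 ± 0.18 (edgeR adjusted p = 3.21e-05). Its homeolog hoxb1.L was at 8.96, 4.802 and 2.92 CPM in DMSO and 7.63, 14.97 and 11.1 CPM in 4-oxo-RA, with 4-oxo-RA replicate 1 inside the control range, and its change of 1.15 ± 0.29 (edgeR adjusted p = 0.0447, unpaired 0.523) was lost without DMSO replicate 2 or 3 or 4-oxo-RA replicate 2 or 3 (adjusted p by edgeR from 0.184 to 0.281).

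Groups 3 to 6 rose from low levels. Expression of hoxb4.S was 3.86, 1.31 and 2.92 CPM in DMSO and 13.5, 25.03 and 24.8 CPM in 4-oxo-RA, a change of 3.09 ± 0.29 (edgeR adjusted p = 1.10e-05). The gene hoxd4.L was at 2.29, 1.54 and 0.112 CPM in DMSO and 26.4, 44.7 and 67.97 CPM in 4-oxo-RA, with DMSO replicate 3 far below the other controls, and changed by 5.28 ± 0.42 (edgeR adjusted p = 1.95e-06). Every treated library was above every control for both genes. Control explants held almost no hoxb5 or hoxb6 RNA, with 5 or 6 counts in all for hoxb5.L, hoxb5.S, hoxb6.L and hoxb6.S. They changed by 5.803 ± 0.38 (edgeR adjusted p = 2.08e-07), 5.37 ± 0.37 (edgeR adjusted p = 3.21e-07), 5.22 ± 0.49 (edgeR adjusted p = 1.25e-05) and 3.43 ± 0.59 (edgeR adjusted p = 0.00304), folds that rest on those few counts, and hoxb6.S lost its call without DMSO replicate 3 (adjusted p by edgeR = 0.0553). The hoxb6 copies were the only members called among 7 tested of Hox groups 6 to 13. Other called members included hoxb3.L and hoxa3.S, at 3.23 ± 0.33 (edgeR adjusted p = 2.47e-05) and 2.09 ± 0.23 (edgeR adjusted p = 4.77e-05). Calls of hoxa2.S, hoxb2.S and hoxd3.L, at 0.91 ± 0.21 (edgeR adjusted p = 0.0270, unpaired 0.177), 1.16 ± 0.29 (edgeR adjusted p = 0.0370, unpaired 0.280) and 2.01 ± 0.51 (edgeR adjusted p = 0.0419, unpaired 0.432), were each lost without DMSO replicate 2 or 3 or 4-oxo-RA replicate 2 or 3 (adjusted p by edgeR from 0.0949 to 0.250). Without the pairing 12 copies of groups 1 to 5 and both hoxb6 copies were called, and between 13 and 17 of groups 1 to 5 on omitting single libraries. A further 5 called genes whose symbols are provisional in the table, listed there as hoxa4, hoxc4, hoxc5 and hoxd4, are outside these counts and rose as well.

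Genes for Hox cofactors of the Meis class, which bind DNA together with Hox proteins, rose. Expression of meis3.L was 133, 131 and 96.2 CPM in DMSO and 407, 385 and 437 CPM in 4-oxo-RA, a change of 1.77 ± 0.12 (edgeR adjusted p = 3.21e-07). The genes meis2.L and meis3.S changed by 1.31 ± 0.10 (edgeR adjusted p = 1.89e-06) and 1.25 ± 0.12 (edgeR adjusted p = 1.10e-05), and the 8 other tested cofactor copies did not pass. All 3 calls were also made without the pairing and without any single library, and no groups overlapped.

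Hindbrain genes divided. Of 34 tested copies 8 rose, 6 fell and 20 did not pass, with a median of −0.24. The largest fall of all genes with an established symbol and at least 1 CPM was that of egr2.L, which marks rhombomeres 3 and 5 (hindbrain segments). Its expression was 28.7, 19.4 and 16.3 CPM in DMSO and 1.46, 1.03 and 0.326 CPM in 4-oxo-RA, a change of −4.59 ± 0.27 (edgeR adjusted p = 8.00e-08). The treated libraries were far below the controls in all 3 numbers. The guidance receptor gene epha4.S, expressed in the same segments, changed by −0.78 ± 0.08 (edgeR adjusted p = 3.25e-05), its relative epha7.L by −1.38 ± 0.23 (edgeR adjusted p = 0.00223) and the nuclear receptor gene nr2f2.L by −1.38 ± 0.23 (edgeR adjusted p = 0.00233, unpaired 0.339). In the other direction, the repressor genes znf703.S and znf703.L changed by 1.64 ± 0.08 (edgeR adjusted p = 5.30e-09) and 1.53 ± 0.08 (edgeR adjusted p = 1.84e-08), with znf703.S at 63.8, 57.1 and 60.2 CPM in DMSO and 198, 171 and 195 CPM in 4-oxo-RA. Controls and treated libraries were each tightly grouped in znf703.S. The homeobox gene gbx2, outside the list, marks the anterior hindbrain, and all 4 of its tested entries rose: gbx2.2.S by 2.37 ± 0.15, gbx2.1.S by 1.497 ± 0.11, gbx2.2.L by 0.88 ± 0.10 and gbx2.1.L by 0.66 ± 0.09 (edgeR adjusted p from 1.37e-07 to 6.55e-04). These entries are near neighbours of similar name, and reads shared between them could not be assessed. Calls of wnt8b.S and nr2f1.S, at −1.22 ± 0.26 (edgeR adjusted p = 0.0161, unpaired 0.256) and −0.99 ± 0.23 (edgeR adjusted p = 0.0271, unpaired 0.231), were lost without each library but DMSO replicate 1 (adjusted p by edgeR from 0.0554 to 0.145) and without each library but DMSO replicate 1 (adjusted p by edgeR from 0.0708 to 0.214). Without the pairing 6 list members rose and 2 fell, and on omitting single libraries between 7 and 8 rose and between 3 and 7 fell.

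Many forebrain and midbrain genes fell. Of 43 tested copies 21 fell, 4 rose and 18 did not pass, with a median of −0.89. Expression of otx2.L, a head regulator, was 199, 247 and 209 CPM in DMSO and 95.1, 95.6 and 59.8 CPM in 4-oxo-RA, a change of −1.43 ± 0.14 (edgeR adjusted p = 1.25e-05). The copy otx2.S was at 70.98, 82.04 and 88.8 CPM in DMSO and 49.3, 59.01 and 40.7 CPM in 4-oxo-RA, a smaller change of −0.71 ± 0.12 (edgeR adjusted p = 0.00304, unpaired 0.0904). Groups did not overlap for either copy. The related otx1.L was at 80.4, 77.3 and 80.7 CPM in DMSO and 30.5, 21.9 and 26.2 CPM in 4-oxo-RA and changed by −1.62 ± 0.16 (edgeR adjusted p = 1.61e-05). The forebrain repressor gene fezf2.L changed by −0.96 ± 0.16 (edgeR adjusted p = 0.00200), hesx1.L, which acts in the anterior neural ridge and pituitary, by −1.29 ± 0.21 (edgeR adjusted p = 0.00195, unpaired 0.270), and nkx2-1.L, of the ventral forebrain, by −2.06 ± 0.34 (edgeR adjusted p = 0.00252, unpaired 0.510). The midbrain signal gene wnt1.L changed by −2.04 ± 0.37 (edgeR adjusted p = 0.00419, unpaired 0.532) and the forebrain gene dlx2.L by −0.999 ± 0.17 (edgeR adjusted p = 0.00233, unpaired 0.226). Expression of arx.S, a forebrain and midline homeobox gene, was 13.3, 11.5 and 11.01 CPM in DMSO and 2.72, 2.77 and 0.326 CPM in 4-oxo-RA, a change of −2.82 ± 0.39 (edgeR adjusted p = 4.97e-04, unpaired 0.0908), and arx.L changed by −2.78 ± 0.44 (edgeR adjusted p = 0.00179, unpaired 0.228). In both arx copies 4-oxo-RA replicate 3 was the lowest library.

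Both copies of fgf8, a secreted signal of the forebrain margin and midbrain boundary, and both copies of six6 rose. Expression of fgf8.L was 37.9, 39.3 and 31.3 CPM in DMSO and 68.1, 64.6 and 81.6 CPM in 4-oxo-RA, a change of 0.98 ± 0.12 (edgeR adjusted p = 1.53e-04), and fgf8.S changed by 0.84 ± 0.11 (edgeR adjusted p = 3.13e-04). The eye gene six6 rose only in part of the fits: six6.L, at 0.52 ± 0.12 (edgeR adjusted p = 0.0225, unpaired 0.630), was lost without each library but DMSO replicate 2 (adjusted p by edgeR from 0.0635 to 0.194), and six6.S, at 0.99 ± 0.24 (edgeR adjusted p = 0.0374, unpaired 0.356), without each library but DMSO replicate 1 (adjusted p by edgeR from 0.0510 to 0.268). Its relative six3.L was at 82.96, 72.2 and 112 CPM in DMSO and 72.8, 47.05 and 62.8 CPM in 4-oxo-RA, with overlapping groups, and its change of −0.56 ± 0.12 (edgeR adjusted p = 0.0146, unpaired 0.567) was lost without DMSO replicate 2 or 3 or 4-oxo-RA replicate 2 or 3 (adjusted p by edgeR from 0.0580 to 0.187). The copy six3.S had 0 counts in every library. In the eye field list 5 of 24 copies fell, 2 rose and 17 did not pass, with a median of −0.21, and the eye field Wnt receptor gene fzd5.S changed by −1.13 ± 0.21 (edgeR adjusted p = 0.00480, unpaired 0.390). Both otx2 copies, six3.L and both six6 copies are counted in this list and in the forebrain list. On omitting single libraries between 3 and 6 eye field copies fell and between 0 and 1 rose. Without the pairing the forebrain list held 3 lower and 2 higher copies and the eye field list 1 lower copy, otx2.L, which is in both lists. On omitting single libraries between 10 and 25 forebrain and midbrain copies fell, the most without DMSO replicate 1 and the fewest without DMSO replicate 3.

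**Figure D3:**
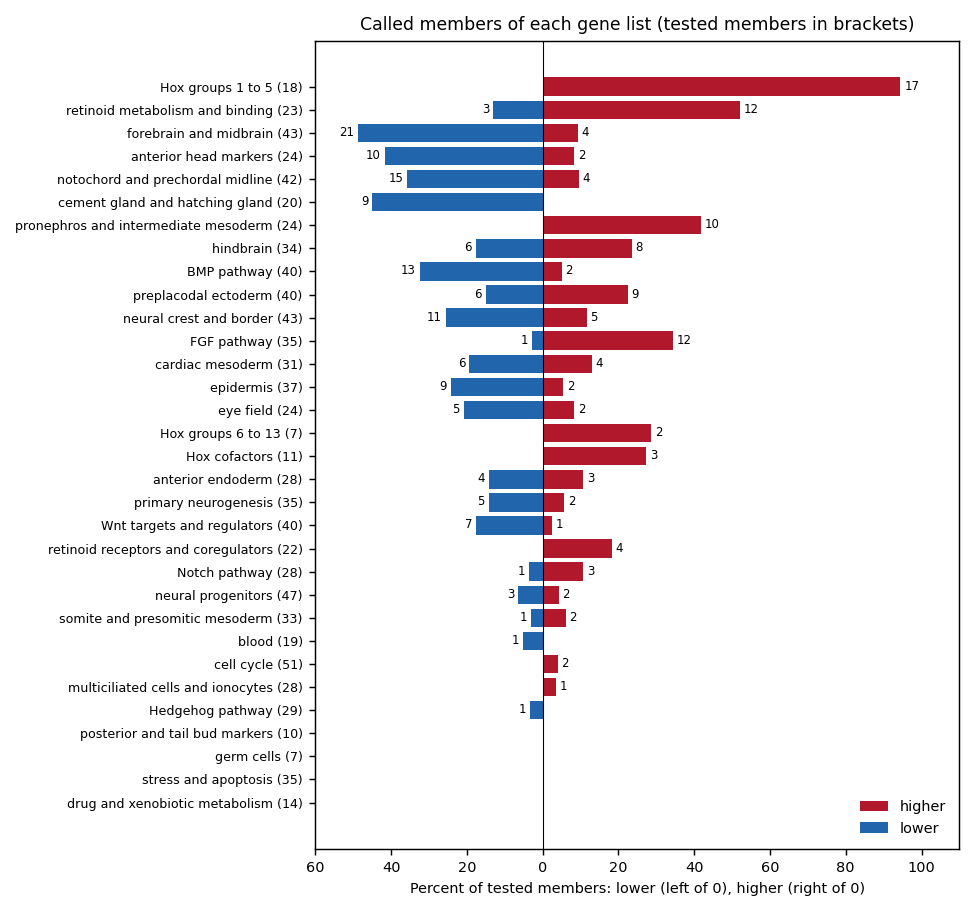
For each of 32 gene lists, the percent of tested members that were called higher (red, right of 0) and lower (blue, left of 0) in the paired fit, with the number of called members beside each bar and the number tested in brackets. Hox groups 1 to 5 reach furthest to the right with 17 of 18, and forebrain and midbrain genes furthest to the left with 21 of 43. Of all tested genes 2.05% were higher and 1.31% lower. The lists were chosen with earlier results of these data known.

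Genes of head ectoderm outside the brain were lower in part. In the list of the cement gland and hatching gland, mucus and enzyme glands of the tadpole head, 9 of 20 tested copies fell and 11 did not pass, with a median of −0.45. Both otx2 copies, described above, belong to this list as well. The abundant cement gland product gene ag1.S was at 1174, 1671 and 1362 CPM in DMSO and 1148, 1071 and 1017 CPM in 4-oxo-RA and changed by −0.37 ± 0.09 (edgeR adjusted p = 0.0347, unpaired 0.404), a call lost without DMSO replicate 2 or 3 or 4-oxo-RA replicate 2 or 3 (adjusted p by edgeR from 0.113 to 0.245). In the epidermis list 9 of 37 copies fell, 2 rose and 26 did not pass, with a median of −0.04. Expression of the keratin gene krt70.L was 699, 829 and 850.2 CPM in DMSO and 390.5, 540.2 and 565 CPM in 4-oxo-RA, a change of −0.68 ± 0.09 (edgeR adjusted p = 2.14e-04, unpaired 0.0629). Its homeolog krt70.S was not called (edgeR adjusted p = 0.910). That copy was far more abundant, averaging 4699 CPM in DMSO and 4821 CPM in 4-oxo-RA, and its log2 change was 0.05. Another keratin gene, krt19.L, changed by −0.47 ± 0.09 (edgeR adjusted p = 0.0105, unpaired 0.226). The krt19.L call was lost without DMSO replicate 1 or 4-oxo-RA replicate 1 or 3 (adjusted p by edgeR from 0.0535 to 0.0936). Those that rose were gata3.S, described with the placodes, and the forkhead gene foxa1.L, at 0.68 ± 0.11 (edgeR adjusted p = 0.00150, unpaired 0.0823). Without the pairing 2 members of each of these lists fell, and on omitting single libraries between 4 and 12 of the gland list and between 4 and 7 of the epidermis list did.

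Preplacodal genes, which mark the source of cranial sense organs, moved both ways: 9 of 40 tested copies rose, 6 fell and 25 did not pass, with a median of 0.01. Expression of ripply3.S, a co-repressor gene of the pharyngeal and placodal region, was 4.06, 6.52 and 6.24 CPM in DMSO and 30.4, 74.8 and 54.8 CPM in 4-oxo-RA, a change of 3.23 ± 0.13 (edgeR adjusted p = 9.41e-10). The T-box gene tbx1.S was at 33.6, 38.7 and 27.8 CPM in DMSO and 85.4, 82.5 and 70.1 CPM in 4-oxo-RA, a change of 1.26 ± 0.10 (edgeR adjusted p = 1.77e-06), and tbx1.L changed by 1.08 ± 0.12 (edgeR adjusted p = 4.10e-05). All treated libraries of these genes were above all controls, with 4-oxo-RA replicate 1 the lowest treated library in ripply3.S. The ear and kidney genes pax8.S and pax8.L changed by 2.04 ± 0.24 (edgeR adjusted p = 1.13e-04) and 1.53 ± 0.19 (edgeR adjusted p = 2.03e-04), and gata3.S, at 79.1, 85.8 and 80.6 CPM in DMSO and 186, 176 and 179 CPM in 4-oxo-RA, changed by 1.14 ± 0.09 (edgeR adjusted p = 1.21e-06). The forkhead gene foxi4.2.S changed by 1.12 ± 0.13 (edgeR adjusted p = 6.32e-05). Without the pairing 7 members rose, and on omitting single libraries between 8 and 10 rose and between 1 and 6 fell.

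Part of the neural crest and BMP pathway genes fell. Of 43 tested copies in the list of neural crest and border 11 fell, 5 rose and 27 did not pass, with a median of −0.28. The homeobox gene msx2.L, which responds to bone morphogenetic proteins (BMPs), was at 70.9, 69.1 and 63.9 CPM in DMSO and 34.8, 33.6 and 26.9 CPM in 4-oxo-RA, a change of −1.105 ± 0.11 (edgeR adjusted p = 1.25e-05). Its relative msx1.L was at 106, 96.5 and 138 CPM in DMSO and 56.9, 67.7 and 67.3 CPM in 4-oxo-RA, a change of −0.81 ± 0.11 (edgeR adjusted p = 5.22e-04). No libraries overlapped for either. The crest regulators snai2.S and twist1.S changed by −1.74 ± 0.30 (edgeR adjusted p = 0.00332) and −1.21 ± 0.17 (edgeR adjusted p = 7.04e-04, unpaired 0.226), while snai2.L, at −1.25 ± 0.27 (edgeR adjusted p = 0.0149, unpaired 0.452), lost its call without DMSO replicate 2 or 3 or 4-oxo-RA replicate 1 or 3 (adjusted p by edgeR from 0.0633 to 0.134). In the BMP list 13 of 40 copies fell, 2 rose and 25 did not pass, with a median of −0.39. The falls of msx2.L, both msx1 copies and both id3 copies are counted in the crest list and in the BMP list. The ventral BMP feedback gene szl fell in both copies, szl.L by 1.26 ± 0.18 and szl.S by 1.09 ± 0.17 on the log2 scale (edgeR adjusted p = 8.21e-04 and 0.00178). The BMP target id3.L, at 569, 537 and 653 CPM in DMSO and 479, 323 and 403 CPM in 4-oxo-RA, changed by −0.57 ± 0.10 (edgeR adjusted p = 0.00468, unpaired 0.513). One of the 2 that rose was fst.L, which encodes follistatin, a secreted antagonist of activin and BMPs. It was at 23.8, 12.8 and 11.2 CPM in DMSO and 56.4, 48.5 and 65.4 CPM in 4-oxo-RA, a change of 1.89 ± 0.18 (edgeR adjusted p = 1.53e-05). Without the pairing 3 crest list copies and 4 BMP list copies fell, and on omitting single libraries between 5 and 13 and between 6 and 13 did. The fewest fell without DMSO replicate 3 in both lists, equalled by the crest list without 4-oxo-RA replicate 1 and by the BMP list without 4-oxo-RA replicate 3.

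Genes of the prechordal plate and axial midline, which underlie the forebrain, were lower in 15 of 42 tested copies and higher in 4, while 23 did not pass and the median was −0.21. Both otx2 copies and both arx copies, counted above with the forebrain, are among the 15. Expression of gsc.L, the marker of the prechordal plate, was 28.9, 11.4 and 28.6 CPM in DMSO and 11.2, 3.41 and 4.24 CPM in 4-oxo-RA, a change of −1.96 ± 0.23 (edgeR adjusted p = 1.20e-04, unpaired 0.226), and gsc.S changed by −1.67 ± 0.27 (edgeR adjusted p = 0.00203). In gsc.L the number 2 libraries were the lowest of each group, and the highest treated library, at 11.2 CPM, was just under the lowest control at 11.4 CPM. The notochord homeobox gene not.L changed by −1.81 ± 0.28 (edgeR adjusted p = 0.00134, unpaired 0.332). The BMP antagonist gene nog2.S changed by −1.56 ± 0.32 (edgeR adjusted p = 0.0109, unpaired 0.170), a call lost without DMSO replicate 3 or 4-oxo-RA replicate 2 or 3 (adjusted p by edgeR from 0.0550 to 0.155). The secreted factor gene pnhd.L, listed with anterior endoderm, was at 63.2, 79.1 and 91.9 CPM in DMSO and 25.3, 16.9 and 18.9 CPM in 4-oxo-RA, a change of −1.99 ± 0.22 (edgeR adjusted p = 6.20e-05), without overlap. Without the pairing 2 midline copies fell, otx2.L and gsc.S, and on omitting single libraries between 7 and 15 fell. The Hedgehog effector gene gli3.L was at 100.4, 100.03 and 92.6 CPM in DMSO and 51.2, 50.5 and 49.5 CPM in 4-oxo-RA, a change of −0.95 ± 0.11 (edgeR adjusted p = 7.20e-05). It was the only called member of 29 tested Hedgehog pathway copies, a share of 3.45%, near the 3.36% of all tested genes. Controls and treated libraries of gli3.L were each close together.

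Wnt list members that changed were mostly lower. Of 40 tested copies 7 fell, 1 rose and 32 did not pass, with a median of −0.15. Every fall but those of the sp5 copies is also counted in the hindbrain, the forebrain and midbrain, or the midline list. The direct Wnt target sp5.L was at 29.9, 37.7 and 34.2 CPM in DMSO and 10.97, 15.4 and 9.38 CPM in 4-oxo-RA, a change of −1.54 ± 0.18 (edgeR adjusted p = 1.02e-04). The copy sp5.S changed by −1.302 ± 0.23 (edgeR adjusted p = 0.00347, unpaired 0.128) and lost its call without DMSO replicate 3 (adjusted p by edgeR = 0.0519). The gene that rose, sfrp2.S, encodes a secreted Wnt antagonist. It was at 230.4, 245 and 133 CPM in DMSO and 438, 714 and 584 CPM in 4-oxo-RA, a change of 1.53 ± 0.15 (edgeR adjusted p = 1.64e-05), with DMSO replicate 3 the lowest control. Its less abundant homeolog sfrp2.L, not called, averaged 59.8 CPM in DMSO and 52.9 CPM in 4-oxo-RA, a change of −0.16 (edgeR adjusted p = 0.752). Without the pairing sp5.L and sfrp2.S were called, and on omitting single libraries between 2 and 8 members fell.

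In the list for FGFs (fibroblast growth factors) and their pathway 12 of 35 tested copies rose, 1 fell and 22 did not pass, with a median of 0.20. The feedback phosphatase gene dusp6.L was at 54.5, 50.7 and 43.8 CPM in DMSO and 159.98, 132 and 143 CPM in 4-oxo-RA, a change of 1.54 ± 0.10 (edgeR adjusted p = 1.37e-07). The effector gene etv1.S was at 133, 154 and 119 CPM in DMSO and 247, 238 and 305 CPM in 4-oxo-RA, a change of 0.96 ± 0.10 (edgeR adjusted p = 4.95e-05). In both genes treated libraries were roughly level and above every control. Other members that rose were the receptor gene fgfr3.L, by 1.15 ± 0.15 (edgeR adjusted p = 2.31e-04), the feedback inhibitor gene spry2.S, by 1.08 ± 0.13 (edgeR adjusted p = 1.75e-04), and etv4.L, by 0.71 ± 0.10 (edgeR adjusted p = 3.89e-04), besides both fgf8 copies. The member that fell was il17rd.S, an FGF inhibitor gene, at −0.58 ± 0.15 (edgeR adjusted p = 0.0408, unpaired 0.485), lost without each library but 4-oxo-RA replicate 2 (adjusted p by edgeR from 0.0605 to 0.229). Its homeolog il17rd.L rose by 0.65 ± 0.13 (edgeR adjusted p = 0.0107, unpaired 0.412), a call lost without DMSO replicate 2 or 3 or 4-oxo-RA replicate 2 (adjusted p by edgeR from 0.0802 to 0.103). Without the pairing 7 members rose, and on omitting single libraries between 8 and 12 did.

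In the list of the pronephros, the embryonic kidney, and intermediate mesoderm 10 of 24 tested copies rose and 14 did not pass, with a median of 0.23. Among them were gata3.S and the pax8 copies, given above. The kidney regulator genes mecom.S and osr2.L changed by 1.52 ± 0.26 (edgeR adjusted p = 0.00253, unpaired 0.158) and 0.94 ± 0.17 (edgeR adjusted p = 0.00381). Without the pairing 6 rose, and between 8 and 9 on omitting single libraries. Cardiac mesoderm genes were mixed, with 4 higher, 6 lower and 21 not passing among 31 tested copies and a median of −0.11. Besides the tbx1 copies, the heart regulator nkx2-5.S was at 37.8, 33.5 and 28.9 CPM in DMSO and 23.1, 17.03 and 17.1 CPM in 4-oxo-RA and changed by −0.82 ± 0.13 (edgeR adjusted p = 0.00203, unpaired 0.157), and tbx20.L changed by −0.96 ± 0.16 (edgeR adjusted p = 0.00304, unpaired 0.176). Groups did not overlap for nkx2-5.S. Anterior endoderm genes had 3 higher, 4 lower and 21 not passing among 28 (median −0.10). Without the pairing tbx1.S and tbx1.L were the called cardiac genes, and 2 endoderm genes rose and 1 fell. On omitting single libraries between 2 and 4 cardiac copies rose and between 2 and 4 fell, 2 in every such fit but that without DMSO replicate 1, and 3 endoderm copies rose and between 2 and 4 fell. Of 33 somite and presomitic copies foxc1.L and mespa.L rose and pcdh8.2.L fell, with a median of −0.24. Expression of foxc1.L was 4.48, 2.17 and 1.63 CPM in DMSO and 14.2, 18.06 and 14.7 CPM in 4-oxo-RA, a change of 2.62 ± 0.32 (edgeR adjusted p = 1.63e-04), and that of mespa.L, a regulator of segment formation, was 1.35, 0.408 and 1.405 CPM in DMSO and 3.24, 3.96 and 8.73 CPM in 4-oxo-RA, a change of 2.42 ± 0.34 (edgeR adjusted p = 5.79e-04, unpaired 0.0919). Groups did not overlap in either, and the number 1 library was the lowest treated one in both. Their S copies, more abundant in DMSO, were not called: foxc1.S changed by 0.53 (edgeR adjusted p = 0.153) and mespa.S by −0.39 (edgeR adjusted p = 0.776). The call of pcdh8.2.L, at −0.59 ± 0.12 (edgeR adjusted p = 0.0119, unpaired 0.181), was lost without DMSO replicate 3 or 4-oxo-RA replicate 3 (adjusted p by edgeR from 0.0824 to 0.141), and on omitting single libraries between 2 and 3 somite copies rose.

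Of the primary neurogenesis, neural progenitor and Notch pathway copies 20%, 10.6% and 14.3% were called, against 3.36% of all tested genes. Among tested genes with an established symbol 3.92% were called. The lists were chosen with earlier results of these data known, so these shares do not test them. In the primary neurogenesis list 5 of 35 tested copies fell, 2 rose and 28 did not pass, with a median of −0.47. On omitting single libraries between 1 and 2 fell and between 0 and 3 rose, so the count of 5 was reached only with all libraries. The gene with the smallest p was olig2.S, a regulator of motor neuron progenitors, at 19.8, 8.65 and 9.44 CPM in DMSO and 10.97, 3.25 and 3.32 CPM in 4-oxo-RA, with overlapping groups and a change of −1.23 ± 0.21 (edgeR adjusted p = 0.00249, unpaired 0.869). Calls of isl1.S, at −0.54 ± 0.12 (edgeR adjusted p = 0.0210, unpaired 0.661), and neurog3.S, at 2.55 ± 0.58 (edgeR adjusted p = 0.0219, unpaired 0.428), were lost without any one of the 6 libraries (adjusted p by edgeR from 0.0506 to 0.135) and without DMSO replicate 2 or 3 or 4-oxo-RA replicate 2 or 3 (adjusted p by edgeR from 0.0582 to 0.107). Neural progenitor genes had 2 higher, 3 lower and 42 not passing among 47 (median −0.09). Of these hes1.L, a repressor downstream of Notch, changed by 0.42 ± 0.09 (edgeR adjusted p = 0.0139, unpaired 0.461) and zic5.S by −0.83 ± 0.17 (edgeR adjusted p = 0.0143, unpaired 0.226), and their calls were lost without DMSO replicate 3 or 4-oxo-RA replicate 1 or 2 (adjusted p by edgeR from 0.0503 to 0.160) and without DMSO replicate 2 or 3 or 4-oxo-RA replicate 1 or 2 (adjusted p by edgeR from 0.0774 to 0.134). Among 28 Notch pathway copies 3 rose and 1 fell (median −0.01). The calls of lfng.L and hes2.L, at 0.41 ± 0.10 (edgeR adjusted p = 0.0275, unpaired 0.445) and −1.61 ± 0.37 (edgeR adjusted p = 0.0245, unpaired 0.395), were lost without DMSO replicate 2 or 3 or 4-oxo-RA replicate 1 or 3 (adjusted p by edgeR from 0.111 to 0.179) and without each library but 4-oxo-RA replicate 3 (adjusted p by edgeR from 0.0574 to 0.139). On omitting single libraries between 0 and 3 progenitor copies rose and between 1 and 4 fell, and between 0 and 3 Notch copies rose and between 0 and 1 fell. The unpaired edgeR fit called 0 members of each of these lists. In the paired fit 21, 25 and 13 had an unadjusted p below 0.05. The share of all tested genes below that limit is not reported here, so these counts are not read as a result. DESeq2 called 7, 7 and 5, against 778 of the 20811 genes given to it.

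Lists with few calls covered other cell types and general states. The called shares of multiciliated cell and ionocyte, blood and cell cycle copies were 3.57%, 5.26% and 3.92%, against 3.36% of all tested genes. Multiciliated cells and ionocytes, cell types of the skin, had 1 called copy of 28, the anion exchanger gene slc4a1.L, at 12.6, 10.6 and 12.9 CPM in DMSO and 21.2, 27.6 and 19.2 CPM in 4-oxo-RA, a change of 0.904 ± 0.16 (edgeR adjusted p = 0.00319). Blood genes had 1 of 19, the myeloid peroxidase gene mpo.L, at 23.9, 32.5 and 7.14 CPM in DMSO and 12.2, 17.8 and 0.978 CPM in 4-oxo-RA, which overlapped between groups and changed by −1.31 ± 0.25 (edgeR adjusted p = 0.00629, unpaired 1.000). Its more abundant homeolog mpo.S, not called, averaged 215 ± 63.4 CPM with DMSO and 229 ± 49.9 CPM with 4-oxo-RA (SD, n = 3), a change of 0.11 ± 0.14 (edgeR adjusted p = 0.855), and with both copies summed the change was 0.0389 (edgeR adjusted p = 0.960). Of 51 cell cycle copies the phosphatase gene cdc25b.S rose by 0.92 ± 0.12 (edgeR adjusted p = 2.32e-04, unpaired 0.125) and the replication clamp gene pcna.S by 0.43 ± 0.11 (edgeR adjusted p = 0.0486, unpaired 0.369), the latter lost without each library but DMSO replicate 1 (adjusted p by edgeR from 0.0552 to 0.358). The more abundant copy cdc25b.L, not called, averaged 118 CPM in DMSO and 112 CPM in 4-oxo-RA, a change of −0.06 (edgeR adjusted p = 0.892). In edgeR's paired fit 0 of 35 copies for stress and apoptosis, 0 of 14 for drug and xenobiotic metabolism, 0 of 10 for posterior and tail bud and 0 of 7 for germ cells were called. Of these 7, 2, 2 and 0 had an unadjusted p below 0.05, again without the share of all tested genes beside them. DESeq2 and limma-voom each called 1, 1, 0 and 0, against 778 and 766 over all tested genes. The smallest p in the first pair of lists was that of nqo1.L, a quinone reductase gene, at 0.51 ± 0.14 (edgeR adjusted p = 0.0595), in the posterior list that of tbxt.S, at −0.62 ± 0.19 (edgeR adjusted p = 0.101), and in germ cells that of grip2.L, at 0.45 ± 0.59 (edgeR adjusted p = 0.852).

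**Figure D4:**
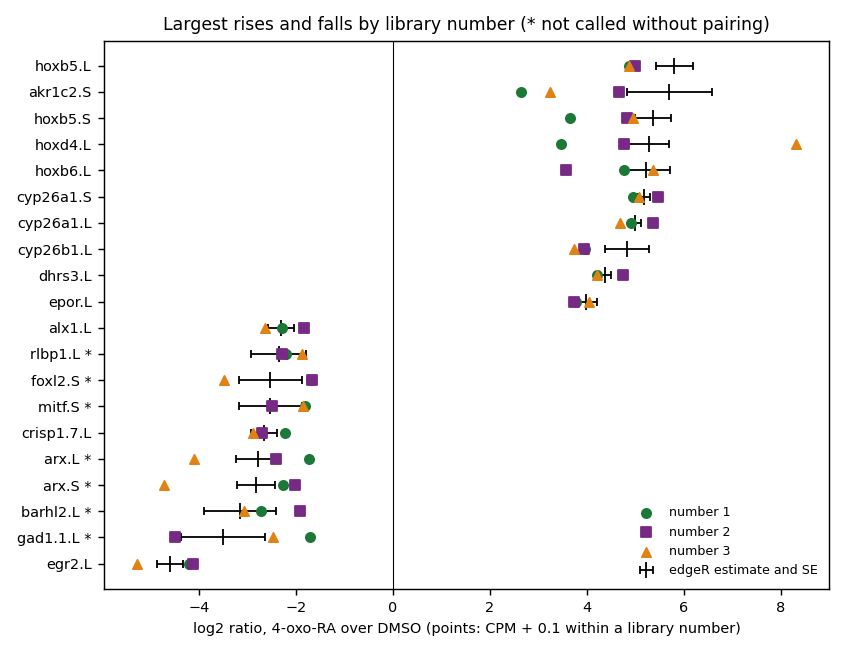
The 10 called genes with the largest rise and the 10 with the largest fall, given an established symbol, at least 1 CPM in the higher group and no overlap. Points are log2 ratios of 4-oxo-RA over DMSO within a library number, from CPM with 0.1 added, and bars are the edgeR estimate with its SE. Every point lies on the side of its gene's estimate, which the choice of genes without overlap fixed in advance. An asterisk marks the falls not called without the pairing.

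The 10 largest rises held in more fits than the 10 largest falls. All 10 rises were called without the pairing and with any single library left out, against 3 and 5 of the falls. Besides the Hox, Cyp26 and dhrs3 genes they were epor.L, which encodes the erythropoietin receptor, and akr1c2.S, an aldo-keto reductase gene. Expression of epor.L was 1.46, 0.815 and 1.01 CPM in DMSO and 21.2, 12.2 and 18.2 CPM in 4-oxo-RA, a change of 3.99 ± 0.24 (edgeR adjusted p = 7.65e-08), without overlap. For akr1c2.S 1 count over the DMSO libraries stood against 57 over the treated ones, a ratio of CPM of 75.1 with an exact 95% interval from 12.95 to 3019 that covers counting error only, and the fitted change was 5.71 ± 0.87 (edgeR adjusted p = 0.00120). It averaged only 1.45 CPM in 4-oxo-RA. The far more abundant homeolog akr1c2.L, not called, averaged 22.6 CPM in DMSO and 25.5 CPM in 4-oxo-RA, a change of 0.19 (edgeR adjusted p = 0.768). Falls that held in these fits besides egr2.L were crisp1.7.L, a cysteine-rich secretory protein gene, and alx1.L, a regulator of head mesenchyme. Expression of crisp1.7.L was 28.7, 33.6 and 23.2 CPM in DMSO and 6.06, 5.07 and 3.06 CPM in 4-oxo-RA, a change of −2.65 ± 0.26 (edgeR adjusted p = 1.61e-05). That of alx1.L was 11.05, 7.88 and 10.96 CPM in DMSO and 2.19, 2.14 and 1.69 CPM in 4-oxo-RA, a change of −2.301 ± 0.26 (edgeR adjusted p = 6.77e-05). Treated libraries lay well below the controls in both. Both arx copies, described above, were also called on omitting any single library but not without the pairing. The 5 other falls were of genes under 2 CPM on average in DMSO: gad1.1.L, of inhibitory neurons, changed by −3.49 ± 0.87 (edgeR adjusted p = 0.0392, unpaired 0.312), barhl2.L by −3.14 ± 0.74 (edgeR adjusted p = 0.0357, unpaired 0.136), mitf.S, of pigment cells, by −2.53 ± 0.65 (edgeR adjusted p = 0.0469, unpaired 0.184), foxl2.S by −2.52 ± 0.64 (edgeR adjusted p = 0.0442, unpaired 0.272) and rlbp1.L, a retinal-binding protein gene, by −2.35 ± 0.56 (edgeR adjusted p = 0.0322, unpaired 0.216). The calls of these 5 were lost without each library but DMSO replicate 1 (adjusted p by edgeR from 0.0878 to 0.246), without any one of the 6 libraries (adjusted p by edgeR from 0.106 to 0.309), without any one of the 6 libraries (adjusted p by edgeR from 0.111 to 0.237), without each library but DMSO replicate 1 (adjusted p by edgeR from 0.0826 to 0.315) and without any one of the 6 libraries (adjusted p by edgeR from 0.0573 to 0.239), in that order.

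By gain in CPM the leading genes were dhrs3.L, cyp26a1.L, cyp26c1.S, cyp26a1.S and has1.S. The last, a hyaluronan synthase gene, was at 1278, 1033 and 2254 CPM in DMSO and 1898, 1595 and 2610.1 CPM in 4-oxo-RA and changed by 0.48 ± 0.10 (edgeR adjusted p = 0.0105, unpaired 1.000), a call lost without DMSO replicate 2 or 4-oxo-RA replicate 1 or 2 (adjusted p by edgeR from 0.0716 to 0.0935). By loss they were olfm4.L, ag1.S, krt70.L, id3.L and krt19.L. Expression of olfm4.L, an olfactomedin gene, was 783, 695 and 1086 CPM in DMSO and 437, 369 and 490.3 CPM in 4-oxo-RA, a change of −0.98 ± 0.16 (edgeR adjusted p = 0.00233, unpaired 0.216). All higher genes together went from 19956 ± 1125 CPM (SD, n = 3) in DMSO to 33978 ± 2004 CPM in 4-oxo-RA, and all lower genes from 19458 ± 649 to 12712 ± 457 CPM, sums over genes chosen for their difference.

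Among called genes with an established symbol, 242 higher and 131 lower ones lay outside all lists. Several that were called without the pairing and without any single library encode secreted or signalling proteins. Expression of emilin1.L, an extracellular matrix glycoprotein gene, was 37.6, 33.5 and 31.4 CPM in DMSO and 94.04, 114 and 159 CPM in 4-oxo-RA, a change of 1.81 ± 0.16 (edgeR adjusted p = 5.61e-06). The semaphorin gene sema3fl.L changed by 1.97 ± 0.17 (edgeR adjusted p = 5.61e-06), clu.L, which encodes the secreted chaperone clusterin, by 3.74 ± 0.36 (edgeR adjusted p = 1.47e-05), the endothelin gene edn1.L by 1.87 ± 0.27 (edgeR adjusted p = 8.21e-04) and apela.S, which encodes a ligand of the apelin receptor, by 1.900 ± 0.27 (edgeR adjusted p = 5.58e-04). The Wnt5a receptor gene ror2.L was at 93.2, 83.9 and 93.96 CPM in DMSO and 153, 154 and 191 CPM in 4-oxo-RA, a change of 0.88 ± 0.08 (edgeR adjusted p = 1.21e-05). No groups overlapped among these. Transcription regulators that rose were bhlhe40.L, by 2.27 ± 0.26 (edgeR adjusted p = 6.68e-05), foxh1.L, a partner of nodal-activated Smads, by 1.02 ± 0.11 (edgeR adjusted p = 3.16e-05), egr4.L, by 1.83 ± 0.22 (edgeR adjusted p = 1.48e-04), the ETS repressor gene erf.S, by 1.16 ± 0.15 (edgeR adjusted p = 3.46e-04), and the Smad co-repressor gene ski.L, by 1.096 ± 0.15 (edgeR adjusted p = 4.12e-04). Both copies of gse1 rose, gse1.L by 0.89 ± 0.08 (edgeR adjusted p = 1.25e-05) and gse1.S by 0.89 ± 0.09 (edgeR adjusted p = 3.16e-05). Among lower genes the semaphorin and VEGF co-receptor gene nrp2.L was at 57.5, 65.2 and 45.3 CPM in DMSO and 27.5, 27.6 and 22.8 CPM in 4-oxo-RA, a change of −1.099 ± 0.11 (edgeR adjusted p = 1.94e-05). The zinc finger gene klf17.1.S changed by −1.07 ± 0.16 (edgeR adjusted p = 0.00125).

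**Figure D5:**
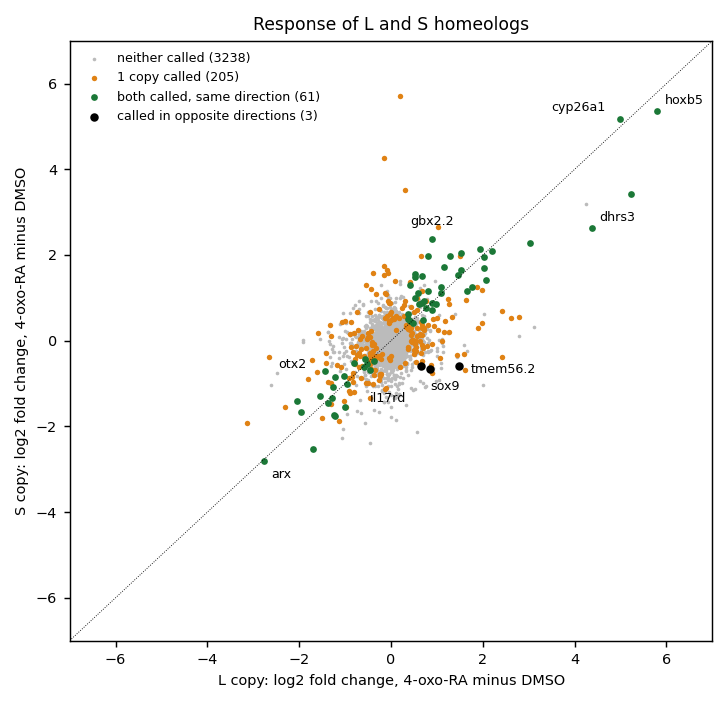
Log2 fold change, 4-oxo-RA minus DMSO, of the S copy against the L copy for 3507 pairs with both copies tested; the dotted line marks equal change. Pairs with both copies called in 1 direction (green, 61) run along the line from arx to hoxb5, and the 3 pairs called in opposite directions (black) lie at lower right of the centre.

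Both homeologs were tested for 3507 genes, and most pairs with a call had a single called copy. Both copies were called higher for 40 genes and lower for 21. A single copy was called higher for 113 genes, where the other copy had the same sign in 67 and a median change of 0.13, and lower for 92 genes, where it had the same sign in 72 and a median of −0.31. Over all pairs the sign was shared by 57.8%. The copies of cyp26a1, hoxd1, znf703 and arx changed to similar extents, while gbx2.2.S and gbx2.2.L, at 2.37 ± 0.15 and 0.88 ± 0.10, and otx2.L and otx2.S, at −1.43 ± 0.14 and −0.71 ± 0.12, were farther apart, and the difference was not tested. Copies of il17rd, sox9 and tmem56.2 were called in opposite directions. The chondrogenic and crest regulator sox9.L was at 31.3, 18.5 and 21.2 CPM in DMSO and 44.7, 29.5 and 54.03 CPM in 4-oxo-RA and changed by 0.85 ± 0.15 (edgeR adjusted p = 0.00311, unpaired 0.426), whereas sox9.S was at 63.6, 56.5 and 73.1 CPM in DMSO and 37.8, 40.1 and 44.3 CPM in 4-oxo-RA and changed by −0.65 ± 0.14 (edgeR adjusted p = 0.0147, unpaired 0.167), a call lost without DMSO replicate 3 or 4-oxo-RA replicate 1 or 2 (adjusted p by edgeR from 0.0544 to 0.169). How reads that match both copies were assigned is not given in the sources used here. Values of near-identical copies are therefore uncertain.

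The labels' other retinoid, RA, was given at 1 µM, a different dose, and shares the DMSO libraries with this comparison, so its values are only set beside those of 4-oxo-RA, without a comparison. Log2 changes against DMSO, with SE, were as follows. For cyp26a1.S they were 5.18 ± 0.12 in 4-oxo-RA and 6.26 ± 0.13 in RA. For dhrs3.L they were 4.39 ± 0.12 in 4-oxo-RA and 4.99 ± 0.12 in RA. For cyp26c1.L they were 3.03 ± 0.12 in 4-oxo-RA and 2.78 ± 0.11 in RA. These genes of retinoid breakdown and storage were above DMSO with both agents. For hoxd1.L the values were 2.19 ± 0.14 in 4-oxo-RA and 2.42 ± 0.14 in RA, and for hoxd4.L 5.28 ± 0.42 in 4-oxo-RA and 6.097 ± 0.42 in RA. For otx2.L they were −1.43 ± 0.14 in 4-oxo-RA and −1.87 ± 0.14 in RA, and for egr2.L −4.59 ± 0.27 in 4-oxo-RA and −5.01 ± 0.28 in RA. For alx1.L they were −2.301 ± 0.26 in 4-oxo-RA and −1.51 ± 0.24 in RA, and for aldh1a2.L −1.22 ± 0.19 in 4-oxo-RA and −1.37 ± 0.19 in RA.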

How the data were processed

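Messenger RNA of 9 libraries (3 each of DMSO, 10 µM 4-oxo-RA and 1 µM RA) was measured by stranded RNA-seq from 500 ng of total RNA with 12 PCR cycles and 50-base paired reads, per the labels' protocols. STAR 2.7.3 is named in the submitters' processing notes. The counting tool, genome build and annotation are not given in the sources used here. The authors deposited raw counts per gene in 1 table and in 9 single-library files, whose values were equal to the table's columns. Genes were named as in the table, and RefSeq's Xenopus_laevis_v10.1 gene table was used for neighbouring genes only, matched for 83.4% of tested genes.

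From the counts, genes with enough counts by edgeR's filterByExpr were kept (20811 of 58413), scaled by TMM and tested with edgeR 4.0.16 (R 4.3.3), a quasi-likelihood fit of all 9 libraries with group and library number as terms, Benjamini-Hochberg adjusted over all genes tested. CPM values use TMM-scaled library sizes.

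Library number was kept as a replicate block because the 3 same-number pairs of DMSO and 4-oxo-RA deviated together (r from 0.434 to 0.459, above the set minimum of 0.1). Pairs of different numbers had r from −0.256 to −0.165. Deviations from a group mean sum to 0, so these negative values follow from the positive ones and are not separate evidence for the pairing. The number effect passed the test in 4595 genes (22.1%), and the biological coefficient of variation was 0.138 with the block and 0.272 without. The pairing was read from these data only: no label links library numbers to females. On simulated counts the paired test made more false calls than its nominal rate and the unpaired one did not. Those counts kept the number effects, which the unpaired fit treats as spread, so its result there is not separate evidence for it. Replicates differed beyond counting noise in the DMSO and 4-oxo-RA groups, and the RA group was not checked. DMSO and 4-oxo-RA libraries held 9404644 to 20883648 counts, and 3 counts, the limit a count of 0 allows, equal 0.0618 CPM over the DMSO group and 0.0789 over the 4-oxo-RA group.

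Named genes were the 10 largest rises and falls (at least 1 CPM in the higher group, no overlap, established symbol), the 5 smallest p-values and 5 largest gains and losses in CPM in each direction, the 3 called members with the smallest p in each list, and a fixed set of retinoid, Hox and head genes, some of which are not reported here. Any further gene named was picked with its values in view. The members and the 32 lists were chosen with earlier results of these data known. Lists shared genes, so a call can count in several lists: 180 distinct copies were called among 726 distinct copies tested. Alternatives were no block, the 6 libraries alone, RLE in place of TMM scaling in edgeR, DESeq2 1.42.0 and limma-voom 3.58.1. Further ones were other filters and thresholds, summed L and S copies, and each library left out. Unpaired fits with each library left out were added after seeing the data.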

Additional observations from a re-analysis of the deposited data

How the results depend on the processing

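Without the replicate block 153 genes were called in place of 700, 130 higher and 23 lower. On omitting single libraries from the paired fit between 349 and 638 genes were called, between 257 and 392 higher and between 92 and 246 lower, with the fewest without DMSO replicate 3. Without the block as well, 97 genes (87 higher, 10 lower) were called without DMSO replicate 1, 75 (70, 5) without DMSO replicate 2, 90 (81, 9) without DMSO replicate 3, 107 (98, 9) without 4-oxo-RA replicate 1, 112 (97, 15) without 4-oxo-RA replicate 2 and 94 (87, 7) without 4-oxo-RA replicate 3. With no filter on low counts 1120 genes were called, 627 higher and 493 lower, at an adjusted p below 0.01 355 genes, 259 higher and 96 lower, and with a fold of at least 2 312 genes, 207 higher and 105 lower. Between 551 and 778 genes were called with the 6 libraries alone, RLE scaling in edgeR, DESeq2, limma-voom or summed L and S copies. The count with a minimum of 10 counts in every library lay in this range as well. Of the 94 named genes 55 kept their side of the threshold without the block and 39 lost their call. The direction of mpo.L turned to 0.0389 when L and S copies were summed. The causes of these differences were not tested, except that stricter thresholds by construction call fewer genes. Among the 2656 genes below 1 CPM the smallest log2 change called was 2.09 in size.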

Other observations

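Called genes sometimes lay side by side in the RefSeq gene table. Among 8978 directly adjacent pairs of tested genes both members were higher in 31 (0.345%), 9 of them with a gene of established hox symbol and 11 with provisional hox symbols included, both were lower in 6 (0.0668%), and 3 changed in opposite directions. Besides gbx2 and hox pairs, septin5.L, gp1bb.L and tbx1.L followed each other with log2 changes of 1.17, 2.33 and 1.08. The gene fbxl4.L, at 1.94 (edgeR adjusted p = 0.0294), lay next to dhrs3.L. Next to cyp26a1.L lay aldh18a1.L, at 0.94 (edgeR adjusted p = 0.00195), which was not called without the pairing. The pair of cyp26a1.S and cyp26c1.S was adjacent as well. Next to etv1.S lay arl4a.S, at 0.63 (edgeR adjusted p = 2.45e-04), and next to etv4.L lay arl4a.L, at 0.38 (edgeR adjusted p = 0.0117). A lower pair was sp5.L, at −1.54, and gad1.1.L, at −3.49. The call of gad1.1.L was lost without the pairing (unpaired edgeR adjusted p = 0.312) and without each library but DMSO replicate 1. All calls of neighbours are those of the paired fit. For those named only here, unpaired p-values and calls lost without 1 library are not reported. Reads that run from a gene into the next were not assessed.

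Of 549 symbol stems with at least 5 tested genes 149 had a called member. Of all tested genes 2.05% were called higher and 1.31% lower. The foxi stem, of forkhead genes, had 3 higher of 6, and 1 without the pairing. The hoxb stem had 10 higher of 13, and 8 without the pairing. The hoxa stem had 4 higher of 5, and 3 without the pairing. In the other direction, epha and pitx each had 3 lower of 5, and 2 and 1 without the pairing. The id stem had 1 higher and 2 lower of 5. These stems were picked with their values in view, and further stems had called members in both directions.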
